A study of Macaca fascicularis with 22 samples.

Results

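Skeletal muscle of female cynomolgus macaque (Macaca fascicularis) neonates was compared between infants of lower birth weight (LBW) and of average birth weight (ABW). The muscle arrays are 8 of the 22 arrays of the series, 4 LBW and 4 ABW, and were chosen by their tissue and birth weight labels alone, whatever their values. The LBW group lay between the 5th and 25th centile of birth weight and the ABW group between the 50th and 75th. Birth weight varied spontaneously and no experimental treatment set the groups apart, and per the methods the neonates of both groups received ketamine before tissue was taken. All pregnancies shared a sire, and the muscle was biceps femoris. The labels place sampling at birth, whereas the methods name a later postnatal day, so the age is given here only as neonatal. Each array held RNA of 1 labelled sample, labelled in 1 colour (Cy3) and hybridised to an Agilent rhesus macaque gene expression array, a close relative's array on which a cynomolgus transcript may bind less well. The labels do not say which animals also gave the liver-labelled and cord-labelled samples.

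Skeletal muscle is made of long multinucleated fibres, whose sarcomeres of myosin and actin generate force and whose mitochondria and glycolytic enzymes supply ATP. Between the fibres lie fibroblasts that secrete collagen, fibronectin and proteoglycans, along with blood vessels, nerves, immune cells and the satellite cells that add nuclei to growing fibres. Muscle takes up much of the glucose cleared under insulin, which is why it is studied in infants born small. In whole muscle, fewer cells of a type and less RNA per cell cannot be told apart.

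All values are log2 signals minus the 75th percentile of their own array, so that 0 is the array's own 75th percentile, and a difference is the LBW mean minus the ABW mean. Of 20217 probes, 17117 were kept, those well above background in no fewer than 75% of arrays within at least 1 of the 6 groups of the series. The 75th percentile signal was 598 to 803 on the ABW arrays and 359 to 722 on the LBW arrays, LBW replicate 3 being the dimmest. Between 14991 and 15977 probes per array were well above background. All ABW arrays lay on 1 slide and all LBW arrays on another, so an effect of the slide and an effect of birth weight cannot be told apart anywhere below. Correlations between the 8 arrays were 0.953 to 0.984 (Pearson's r over probes), and at least 0.970 among the 7 without LBW replicate 3. The number of arrays, 4 in each group, limits the precision. The labels do not say whether replicates differ by more than the infant, so p-values measure the spread between these samples.

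The tissue label was checked on the striated muscle genes that have a name here. TCAP, the telethonin that caps titin at the Z-disc, had a level of 8.31 to 9.06 on the muscle arrays and at most 1.16 on any other array. Slow troponin C (TNNC1) lay between 5.26 and 7.25 in muscle and no higher than -2.48 elsewhere. CACNB1, a subunit of the muscle calcium channel, lay between 4.90 and 5.85 against at most 0.10 elsewhere. The muscle arrays therefore carried striated muscle RNA at levels far above those of the liver-labelled and cord-labelled arrays. The 10 defining fibre markers, such as the skeletal myosins and alpha actin, have no probe with a name here.

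No probe differed between LBW and ABW muscle at an adjusted p below 0.05 (limma, Benjamini-Hochberg over 17117 probes), and the lowest adjusted p was 0.0603. At an unadjusted p below 0.05, 2524 probes (14.7%) differed, and the methods' t-test gave 1922. The study's own threshold, an unadjusted p below 0.05 with at least a 1.5-fold difference, is used below as the meaning of called, and a called gene is a nominal one. With limma 2089 probes (12.2%) were called, 1661 higher (9.70%) and 428 lower (2.50%) in LBW muscle. All 4 LBW arrays lay above all 4 ABW arrays for 1474 probes (8.61%), and below them for 329 (1.92%). For such a separated gene the exact two-sided permutation p is 0.0286, the smallest that 4 against 4 can give.

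Direction went with signal level. When the kept probes were split into 5 equal bins by mean signal, 701 were called higher and 107 lower in the dimmest bin (20.5% and 3.12%). In the next bin the counts were 578 and 102, and in the middle bin 266 and 115. In the brightest bin 39 were called higher and 38 lower, a nearly even split. The median difference over the dimmest bin was 0.26 and over the brightest 0.01. The dimmest bin had a median signal of 6.15 to 10.3 on the ABW arrays and 6.62 to 9.85 on the LBW arrays before scaling, and its median after scaling was -6.60 to -6.22 and -6.29 to -5.76. LBW replicate 3 had the highest of these scaled medians and the lowest 75th percentile. Without that array 504 were called higher in the dimmest bin. Normexp is a background correction that models signal and background of each array (offset 50). With it, 3 probes of that bin were called higher and none lower. This setting also started from the median intensity of each spot and kept spots marked as outliers. Whether a difference in background between the slides contributed was not tested. The offset adds 50 to every corrected signal, which by itself makes log2 differences of dim probes smaller, so a loss of calls in this bin was likely beforehand. A call on a dim gene, in either direction, can therefore change with the normexp setting as a whole. Its parts, the correction, the offset and the handling of spots, were not tested apart.

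**Figure D1:**
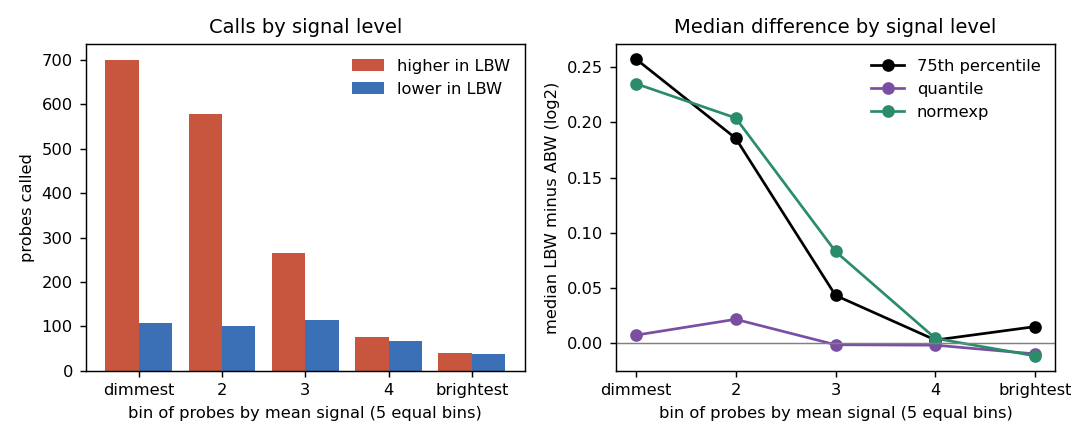
Left, number of probes called higher (red) and lower (blue) in LBW muscle in each of 5 equal bins of the 17117 probes, ordered by mean signal from dimmest to brightest. Right, median LBW minus ABW difference (log2) in each bin under 3 processings. Calls higher in LBW fell from 701 in the dimmest bin to 39 in the brightest, and the median difference under 75th percentile scaling from 0.26 to 0.01.

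Gene names came from the study's supplementary list, which was itself chosen on these arrays for an effect of birth weight. It names 1984 of the kept probes, of which 238 were called higher and 178 lower (21.0% together, against 11.1% of unnamed probes). Counts over named genes are therefore not independent evidence of a direction, and are described with no test of the list. Below, a measured gene or probe of a list is one that has a name here. Another 15133 kept probes have none, so a count over a list does not stand for its whole pathway. Over all 17117 probes the median difference was 0.07. Most functional classes of that list had calls in both directions. The exceptions were carbohydrate metabolism, with no call among 6 probes, and catabolism, with 1 called higher and none lower of 9. Apart from the 784 probes without a class, 29 were called higher and 29 lower of 261 probes for other biological processes, and 18 and 24 of 228 for macromolecule synthesis. Of 207 probes for nucleobase metabolism the counts were 14 and 11, and of 142 for transport 24 and 15. Biosynthesis (99 probes) had 7 and 9, and developmental process (74 probes) 18 and 7.

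Most genes of the extracellular matrix lists with a name here were called lower in LBW muscle. Only 9 of the 61 listed genes have one. Of 9 measured probes on the lists of collagens and of matrix glycoproteins and their enzymes, 8 were called lower in LBW muscle and none higher, and all 9 differences were below 0, with a median of -1.05. This compares with 2.50% of all probes called lower, and with 178 of the 1984 named probes, the set from which all list members come. FN1 encodes fibronectin, the glycoprotein that links collagen to integrins on cells. Its level was 2.83, 2.16, 1.37 and 2.21 on the ABW arrays and 0.74, 0.98, 0.03 and 1.32 on the LBW arrays. Every LBW array lay below every ABW array, and the difference was -1.37 (SE 0.36, adjusted p = 0.135), a 2.59-fold lower signal. COL1A1 encodes the alpha 1 chain of type I collagen, the main fibrillar collagen of connective tissue, and had levels of 2.63, 2.70, 1.68 and 2.34 on the ABW arrays and 1.28, 0.59, 1.12 and 2.17 on the LBW arrays. The groups overlapped through LBW replicate 4 and ABW replicate 3, and the difference was -1.05 (SE 0.36, adjusted p = 0.218).

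LUM encodes lumican, a small leucine-rich proteoglycan that spaces collagen fibrils. It read -0.24, -0.77, -1.61 and -0.50 on the ABW arrays and -1.995, -1.80, -1.90 and -1.63 on the LBW arrays, and LBW replicate 4 just missed ABW replicate 3, so that the groups did not overlap, with a difference of -1.05 (SE 0.29, adjusted p = 0.15). COL8A2, a short-chain network collagen, was also separated, at -2.90, -3.35, -4.31 and -4.26 on the ABW arrays and -6.29, -4.93, -4.45 and -5.02 on the LBW arrays, with a difference of -1.47 (SE 0.45, adjusted p = 0.18). S100A4, a calcium-binding protein common in fibroblasts and some immune cells, read 2.63, 2.84, 0.55 and 1.40 on the ABW arrays and -0.20, 0.55, 0.66 and 0.79 on the LBW arrays. ABW replicates 1 and 2 were high and ABW replicate 3 fell among the LBW arrays, and the difference was -1.40 (SE 0.49, adjusted p = 0.228). The other called members differed less, VCAN (versican, a large proteoglycan) by -0.72, OGN (osteoglycin) by -0.62, and PLOD2, which hydroxylates collagen lysines, by -0.93. P4HA1, which hydroxylates collagen prolines, missed the 1.5-fold threshold at -0.52 (unadjusted p = 0.0422).

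**Figure D2:**
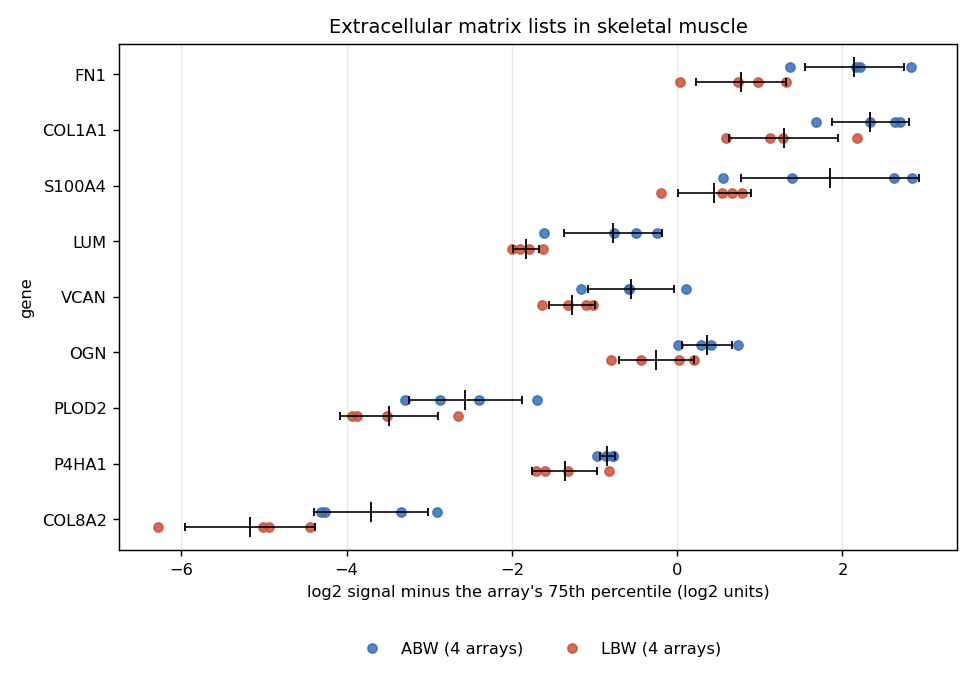
Level of each of the 9 matrix list genes with a name here on the 4 ABW (blue) and 4 LBW (red) muscle arrays, as log2 signal minus the array's 75th percentile. Points are arrays, the vertical tick is the group mean and the bar its SD. LBW means are the lower ones for all 9 genes, and FN1, LUM and COL8A2 have no overlap between the groups.

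The count of 8 was sensitive to single arrays. It ranged from 4 to 8 when 1 array was left out, being 4 without ABW replicate 1 and 5 without ABW replicate 2, ABW replicate 4 or LBW replicate 3. FN1, COL1A1 and LUM stayed called in all 23 alternative settings run. The mean of the 9 probes was 0.36, -0.02, -0.86 and -0.25 on the ABW arrays and -1.30, -1.34, -1.35 and -0.83 on the LBW arrays. Of the 10 fibroblast markers listed, the 2 that are named here are COL1A1 and LUM, both members of the matrix lists, so a marker check apart from the result was not possible. A wider search of the descriptions for matrix words, made after values were seen, gave 18 probes, of which 9 were called lower and 1 higher, and 6 differences were above 0. Outside the lists, MMP25, a membrane-anchored metalloproteinase, differed by -1.18 (SE 0.28, adjusted p = 0.117), and ITGBL1, an integrin-like secreted protein, by -1.35 (SE 0.47, adjusted p = 0.228). COL27A1, a fibrillar collagen of cartilage, was called higher at 0.59. LAMB2, a laminin chain of muscle basement membrane, differed by 0.01 (unadjusted p = 0.967).

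Most genes of the cell cycle list with a name here were called lower in LBW muscle but lay close to the background. Only 7 of the 62 listed genes have one. Of 7 measured genes on the cell cycle list, 6 were called lower and none higher. Over all probes 2.50% were called lower, and over the named ones 178 of 1984. All 7 differences were below 0, with a median of -1.07. CCNB1 encodes cyclin B1, the regulatory partner of the mitotic kinase. It read -5.62, -5.54, -5.58 and -5.22 on the ABW arrays and -6.41, -6.69, -7.09 and -6.08 on the LBW arrays. The groups were separated, with a difference of -1.07 (SE 0.24, adjusted p = 0.107), and 2 of the 4 LBW arrays were well above background. ANLN, the anillin of the contractile ring, read -4.99, -6.35, -6.23 and -4.80 on the ABW arrays and -7.48, -6.80, -7.47 and -6.53 on the LBW arrays and differed by -1.47 (SE 0.41, adjusted p = 0.151). UHRF1, which carries DNA methylation through replication, differed by -1.53 (SE 0.49, adjusted p = 0.193), BUB1B, a spindle checkpoint kinase, by -1.02 (SE 0.45, adjusted p = 0.332), and CENPE, a kinetochore motor, by -1.17 (SE 0.42, adjusted p = 0.24). KIF11, a spindle motor, was well above background on no LBW array and on 1 ABW array. Raising its LBW signals to the lowest detected level left it 1.17-fold lower in LBW. ABW signals that were not detected were kept, so this is not a strict minimum. With normexp its difference turned to 0.151. CDC2, the mitotic kinase itself, missed the threshold at -0.62 (unadjusted p = 0.0634).

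None of the 7 was well above background on all 8 arrays. With normexp no member of this list was called, and the list's median became 0.04. PTTG1, or securin, was well above background on all 8 arrays. It was found by a search of the descriptions for words of cell division, made after values were seen. It read -1.17, -1.53, -2.14 and -1.27 on the ABW arrays and -2.60, -2.18, -2.49 and -2.36 on the LBW arrays. Its groups were separated at -0.88 (SE 0.24, adjusted p = 0.149), and its call held in all 23 alternative settings. In that search 9 of 23 probes were called lower and none higher. Of the 14 among them that were well above background on all 8 arrays, 2 were called lower, with a median of -0.30, and with normexp 1 of the 23 was called.

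Immune signalling genes moved in both directions. Of 10 measured probes on the chemokine, cytokine, complement and interferon lists, 5 were called lower and 1 higher, with a median of -1.11. Over all probes 2.50% were called lower and 9.70% higher, and over the 1984 named ones 178 and 238. With normexp 1 of the 10 was called lower and 1 higher, and the median was -0.08. C2 encodes a complement protease of the classical and lectin pathways. Its level was -1.75, -1.12, -1.13 and -1.19 on the ABW arrays and -2.79, -3.65, -2.70 and -2.20 on the LBW arrays, separated, and the difference was -1.53 (SE 0.31, adjusted p = 0.0941). IL15RA presents interleukin 15, a cytokine made in muscle, to neighbouring cells, and read -3.26, -3.09, -2.90 and -2.90 on the ABW arrays and -4.14, -4.13, -4.52 and -5.18 on the LBW arrays. Its groups were separated at -1.45 (SE 0.26, adjusted p = 0.0938). CCL2, which draws monocytes into tissue, read -4.48, -4.43, -6.70 and -5.21 on the ABW arrays and -8.05, -7.06, -7.73 and -6.52 on the LBW arrays. ABW replicate 3 lay among the LBW arrays, and the difference was -2.13 (SE 0.53, adjusted p = 0.123).

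CCL11, or eotaxin, differed by -2.01 (SE 0.67, adjusted p = 0.21). Both chemokines were well above background on 3 ABW arrays and 1 LBW array. APOBEC3G, which edits retroviral DNA, was well above background on 3 ABW arrays and on no LBW array. Raising its LBW signals to the lowest detected level left it 2.95-fold lower in LBW. An undetected ABW signal was kept, so this is not a strict minimum. CXCL16, a membrane-bound chemokine, was the member called higher, at -4.11, -4.99, -4.52 and -4.38 on the ABW arrays and -3.46, -3.65, -2.67 and -3.72 on the LBW arrays, with a difference of 1.13 (SE 0.28, adjusted p = 0.128). Of 8 probes for interleukin receptors, found by name afterwards, 3 were called higher and 1 lower, with a median of -0.07. IL15RA was the lower one, and IL11RA (1.13) and IL22RA1 (1.17) were among the higher. The macrophage, neutrophil, T and NK cell and B cell marker lists have no probe with a name here, so immune cell content was not tested. CA2, carbonic anhydrase of red cells and other tissues and the 1 named erythroid marker, read -1.51, -0.43, -1.50 and -0.60 on the ABW arrays and -3.85, -4.00, -2.61 and -0.90 on the LBW arrays, a difference of -1.83 (SE 0.64, adjusted p = 0.228).

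**Figure D3:**
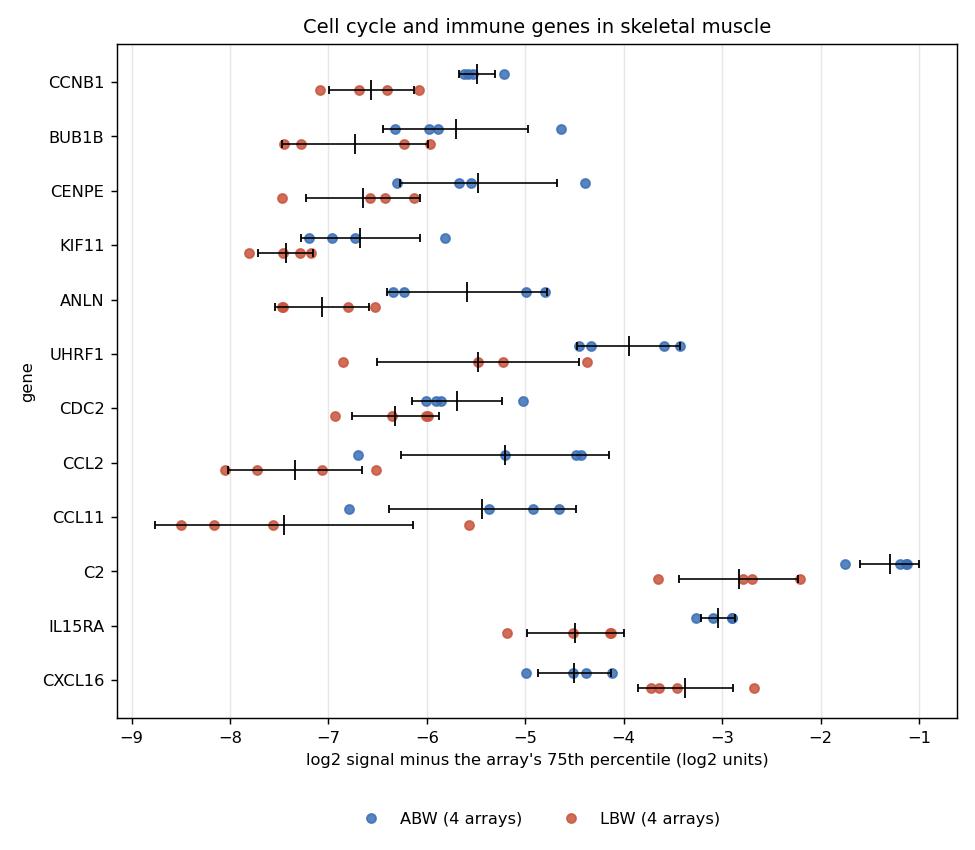
Level of the 7 cell cycle genes and of 5 immune genes on the 4 ABW (blue) and 4 LBW (red) muscle arrays, as log2 signal minus the array's 75th percentile, with group mean (tick) and SD (bar). LBW means are lower except for CXCL16, and the groups do not overlap for CCNB1, ANLN, C2, IL15RA and CXCL16.

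Few genes that make ATP by respiration were called. Of 17 measured probes for the respiratory chain, ATP synthase and the citric acid cycle, 1 was called lower and none higher. Over all probes 2.50% were called lower, and over the named ones 178 of 1984. Differences below 0 numbered 16 of the 17, with a median of -0.38, against 7302 of all 17117 probes. CYCS, cytochrome c, the electron carrier between complexes III and IV, was the called one. It read 5.54, 6.43, 5.76 and 5.49 on the ABW arrays and 4.58, 4.84, 5.27 and 5.25 on the LBW arrays, with separated groups and a difference of -0.82 (SE 0.26, adjusted p = 0.201), and stayed called in all 23 alternative settings. SDHD, a subunit of complex II, was separated too but differed by -0.46, below 1.5-fold. All 6 complex I subunits had differences between -0.50 and -0.22, and none was called. The median of the 17 was -0.14 without ABW replicate 2, the array with the highest mean over them (2.41, against 1.58 to 1.68 on the other ABW arrays), and -0.17 without LBW replicate 1, the array with the lowest (1.003, against 1.56 to 1.71 on the other LBW arrays).

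Both glycolytic enzymes with a name here, of 23 listed, were called lower, against 2.50% of all probes and 178 of the 1984 named ones. LDHA, which turns pyruvate into lactate, read 6.01, 6.95, 6.22 and 6.47 on the ABW arrays and 5.04, 4.84, 4.98 and 6.66 on the LBW arrays. LBW replicate 4 lay among the ABW arrays, and the difference was -1.03 (SE 0.41, adjusted p = 0.286). PGK1, phosphoglycerate kinase, differed by -0.62 (SE 0.27, adjusted p = 0.322). Neither call was stable, since LDHA stayed called without ABW replicate 1, ABW replicate 3 or LBW replicate 4 only, and PGK1 without ABW replicate 3 or LBW replicate 4 only. ADK, adenosine kinase, which returns adenosine to AMP, read -3.96, -5.45, -4.10 and -3.79 on the ABW arrays and -7.23, -6.30, -7.63 and -6.01 on the LBW arrays, a separated difference of -2.46 (SE 0.46, adjusted p = 0.0938), with 2 of 4 LBW arrays well above background. In lipid handling, SLC27A1, a fatty acid transporter, was higher by 0.69 (SE 0.25, adjusted p = 0.24) and ELOVL3, a fatty acid elongase, lower by -1.28 (SE 0.41, adjusted p = 0.194). Muscle carnitine palmitoyltransferase (CPT1B), the gate of mitochondrial fatty acid entry, had 2 probes that differed by 0.29 and 0.33 and were not called.

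In protein synthesis, ribosomal genes were called in both directions. Over all probes 9.70% were called higher and 2.50% lower, and over the 1984 named ones 238 and 178. Of 10 mitochondrial ribosomal proteins, 9 had differences below 0, with 2 called lower (MRPL1 at -0.82, MRPS30 at -0.75) and MRPS6 called higher at 2.46, 1.89, 2.40 and 2.74 on the ABW arrays and 2.92, 3.46, 2.85 and 2.93 on the LBW arrays. Of 9 probes for cytosolic ribosomal proteins, 2 were called higher, 6 differences were below 0 and the median was -0.06. RPL13 read 2.61, 2.76, 4.58 and 4.44 on the ABW arrays and 4.92, 5.60, 4.95 and 5.78 on the LBW arrays, a difference of 1.71 (SE 0.49, adjusted p = 0.156). ABW replicates 1 and 2 lay well below ABW replicates 3 and 4. Ribosomal proteins have many near-identical pseudogenes, which makes single probes uncertain. EIF4E, which binds the mRNA cap to start translation, was separated at -0.78 (SE 0.26, adjusted p = 0.209), and DARS, the aspartate tRNA synthetase, at -1.56 (SE 0.36, adjusted p = 0.113). DARS lay in the dimmest bin, well above background on 3 ABW arrays and 1 LBW array.

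Among growth and nutrient signalling genes, RHEB, the GTPase that activates mTORC1, read -0.70, -0.07, -0.62 and -0.89 on the ABW arrays and -1.99, -1.79, -0.96 and -0.91 on the LBW arrays, a separated difference of -0.84 (SE 0.30, adjusted p = 0.239). It was the 1 member called of 9 on the insulin signalling and energy-sensing lists (none higher). Called lower were 2.50% of all probes and 178 of the 1984 named ones. SLC2A4, the insulin-responsive glucose transporter, differed by 0.33 (unadjusted p = 0.203). STK11, the kinase upstream of AMP kinase, was separated but under 1.5-fold at 0.55. PASK, a nutrient-sensing kinase, read -8.06, -8.29, -2.66 and -2.69 on the ABW arrays and -4.65, -2.67, -2.08 and -2.05 on the LBW arrays. ABW replicates 1 and 2 were far below every other array and not well above background, while ABW replicates 3 and 4 lay in the LBW range, so its difference of 2.56 (SE 1.38, adjusted p = 0.438) was not called. MEST, an imprinted growth gene, was lower by -0.62 (SE 0.21, adjusted p = 0.221), and NPAS2, a circadian transcription factor, higher by 0.66 (SE 0.22, adjusted p = 0.213).

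Of 10 measured probes on the sarcomere, excitation, junction and membrane lists, 4 were called higher and 1 lower. The shares over all probes were 9.70% higher and 2.50% lower, and the counts over the 1984 named ones 238 and 178. Among the calls of all probes 79.5% were higher. TNNC1 read 6.09, 5.26, 6.39 and 6.51 on the ABW arrays and 6.50, 7.25, 6.58 and 6.88 on the LBW arrays. The groups overlapped barely, through ABW replicate 4, with a difference of 0.74 (SE 0.30, adjusted p = 0.304). COLQ, the collagen tail that anchors acetylcholinesterase at the neuromuscular junction, read -3.55, -3.52, -3.58 and -3.61 on the ABW arrays and -2.71, -2.97, -2.94 and -3.01 on the LBW arrays. The groups were separated, at 0.66 (SE 0.16, adjusted p = 0.117). SCN3B, a sodium channel subunit, was separated at 1.46 (SE 0.38, adjusted p = 0.131), and GYLTL1B, a glycosyltransferase of dystroglycan, overlapped at 1.66 (SE 0.47, adjusted p = 0.155). SSPN, sarcospan of the dystrophin complex, was the 1 called lower, at -0.62 (SE 0.23, adjusted p = 0.245). TCAP differed by 0.17 (unadjusted p = 0.419), and DMD, dystrophin, by 0.37 (unadjusted p = 0.121). A probe for myosin binding protein H, a thick filament protein, varied widely within both groups, at 7.43, 6.97, 5.17 and 4.05 on the ABW arrays and 3.25, 6.42, 1.97 and 3.45 on the LBW arrays, and its difference of -2.13 was not called. MYH6, the alpha cardiac myosin heavy chain, differed by 1.17 (unadjusted p = 0.0637).

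The smallest p-values belonged largely to dim probes, several of them for genes typical of other tissues. The 8 named genes with the smallest p among those higher were HOXB13, CST9L, SEC14L3, LOC553158, H1FOO, POU4F3, FLCN and TMEM45B. HOXB13, a homeobox factor of the posterior body, read -4.40, -4.40, -4.32 and -4.08 on the ABW arrays and -2.80, -2.77, -2.80 and -2.88 on the LBW arrays. The groups were separated by more than 1 log2 unit, and the difference was 1.49 (SE 0.16, adjusted p = 0.0603). POU4F3, a factor of inner ear hair cells, read -4.43, -4.46, -4.70 and -4.90 on the ABW arrays and -2.70, -3.05, -1.88 and -3.06 on the LBW arrays, at 1.95 (SE 0.28, adjusted p = 0.0793). H1FOO, the oocyte linker histone, read -6.57, -6.35, -6.32 and -6.72 on the ABW arrays and -4.76, -4.53, -3.93 and -5.03 on the LBW arrays, at 1.92 (SE 0.25, adjusted p = 0.0675), with 1 of 4 ABW arrays well above background. CST9L, a cystatin, differed by 1.55 (SE 0.17, adjusted p = 0.0603), and FLCN, folliculin, a regulator of AMP kinase and mTORC1 that muscle also uses, by 1.07 (SE 0.16, adjusted p = 0.0823).

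The list of olfactory receptors, keratin-associated proteins, defensins and cystatins, chosen because muscle is not known to use them, had 13 probes. Of these 7 were called higher and none lower, with a median of 0.64, against 9.70% of all probes and 20.5% of the dimmest bin. Named probes were called higher more often, 238 of 1984 in all and 110 of 424 in the second dimmest bin. OR2F2, an olfactory receptor, read -4.63, -5.79, -5.14 and -5.19 on the ABW arrays and -4.08, -3.51, -3.48 and -3.80 on the LBW arrays, separated, at 1.47 (SE 0.27, adjusted p = 0.0938). The mean of the 13 was -4.24 to -4.04 on the ABW arrays and -3.70 to -3.03 on the LBW arrays, highest on LBW replicate 3. The count was 3 without LBW replicate 3, 4 without ABW replicate 2 and 2 with normexp. Among 11 probes with homeobox, paired box, POU domain or forkhead names, grouped after values were seen, 5 were called higher and none lower. Over all probes 9.70% were called higher, and over the named ones 238 of 1984. The 5 included HOXB13 and POU4F3, already described above. PAX8, a thyroid and kidney factor, and DLX2, a forebrain and jaw factor, were also among them, the latter at 0.91. SP7, the osteoblast factor osterix and the 1 named marker of cartilage and bone, differed by 1.37 (SE 0.23, adjusted p = 0.0896).

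**Figure D4:**
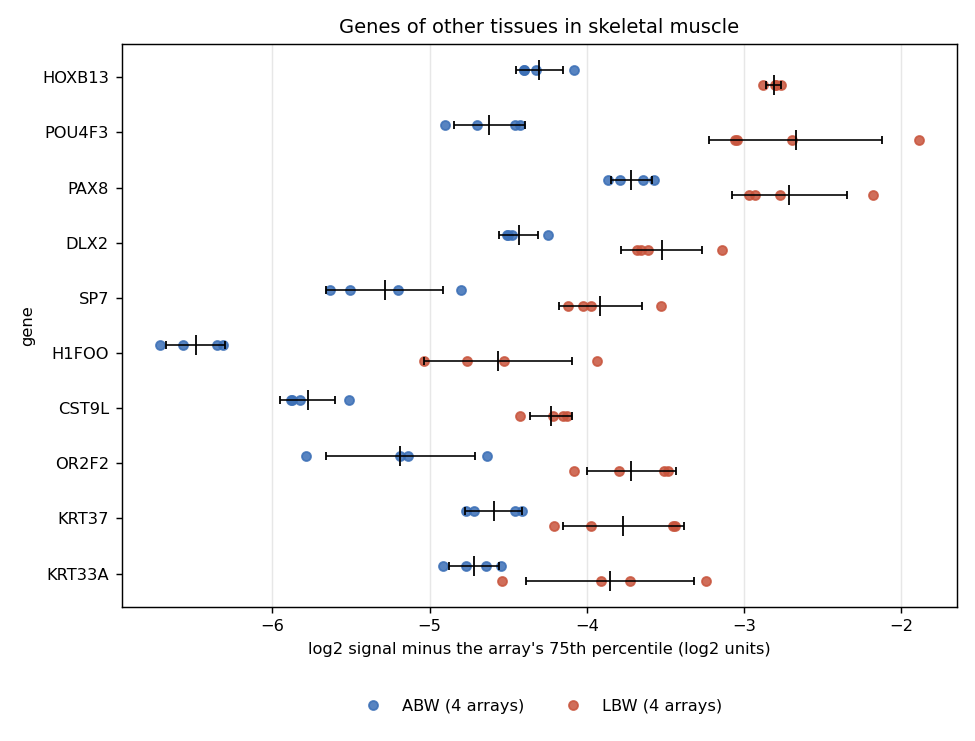
Level of 10 genes typical of tissues other than muscle on the 4 ABW (blue) and 4 LBW (red) muscle arrays, as log2 signal minus the array's 75th percentile, with group mean (tick) and SD (bar). All 4 LBW arrays lie above all 4 ABW arrays for each gene, at signals below the 75th percentile. The 10 genes were picked for display with their values known, so their separation is not a test. On the list of genes of other tissues, 8 of 13 probes were separated in this direction.

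Other genes with the smallest p among those lower included HIST1H1E, a linker histone, and SCRN3, a secernin. HIST1H1E read -1.62, -2.03, -2.04 and -2.10 on the ABW arrays and -3.08, -2.79, -2.84 and -3.06 on the LBW arrays, separated, at -0.99 (SE 0.18, adjusted p = 0.0938). SCRN3 differed by -1.05 (SE 0.25, adjusted p = 0.117). BNIP3L, a receptor for the removal of mitochondria, differed by -1.35 (SE 0.37, adjusted p = 0.151), with 1 of 4 LBW arrays well above background.

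The scaling of the arrays set the balance of directions. Of the called probes 79.5% were higher in LBW with 75th percentile scaling, 68.1% with median scaling, 61.3% with quantile normalization, 67.3% with normexp and 8.23% with spike-in scaling. Spike-in scaling, which sets the arrays level on control RNAs added to each sample, moved the median of all probes to -0.39. Relative to the median of all probes, the matrix lists lay at -1.11 with 75th percentile scaling and at -0.72 with normexp, and the genes of other tissues at 0.57 and 0.22. Median and spike-in scaling shift all probes of an array alike and cannot change these relative values. The matrix and respiratory chain lists kept a negative median under all 5 scalings, whereas the cell cycle list turned to 0.04 with normexp.

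**Figure D5:**
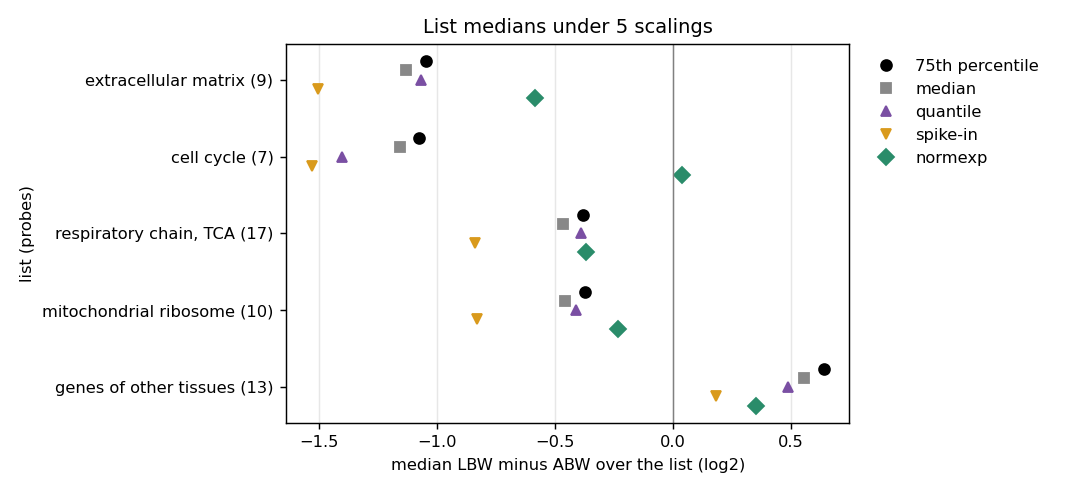
Median LBW minus ABW difference (log2) over 5 gene lists, with the number of probes in parentheses, under 5 ways to scale or background-correct the arrays. Matrix and mitochondrial lists are below 0 under each, genes of other tissues above 0 under each, and the cell cycle list crosses 0 with normexp.

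The effect of birth weight in muscle was set against that on the liver-labelled and cord-labelled arrays by the difference of the effects. No probe passed at an adjusted p below 0.05 (limma), while 1229 probes (7.18%) had an unadjusted p below 0.05, and 1204 (7.03%) also differed by 1.5-fold. FN1 had a difference of -1.37 in muscle and of -0.08 and -0.07 on the liver-labelled and cord-labelled arrays, with an unadjusted p of 0.00434 for the difference of effects. C2 had differences of -0.56 and 0.30 there. For HOXB13 they were 0.62 and -0.02. Other genes differed more on the cord-labelled arrays than in muscle, ADK by -3.13, DARS by -3.66, MRPL1 by -3.94 and RHEB by -2.71. COL8A2 (-1.21) and COL1A1 (-0.87) were lower there too, by somewhat less than in muscle. None of these differences between tissues held after adjustment.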

How the data were processed

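RNA of each sample was hybridised in 1 colour, and the deposited scanner files give an intensity per spot, which per the file headers was background-subtracted by Agilent Feature Extraction 10.1.1.1 on the muscle arrays. The authors also deposited a table of log2 values normalized in their own software, used here as an alternative. From the scanner files, the mean processed intensity of a probe's spots (median 2, without spots marked as outliers) was taken and put on a log2 scale with the 75th percentile of each array at 0. Probes were kept when no fewer than 75% of the arrays in at least 1 of the 6 groups measured them well above background. LBW and ABW muscle arrays were compared with limma 3.58.1 (R 4.3.3) with Benjamini-Hochberg adjustment. The fit was tested on simulated data. A probe was called at an unadjusted p below 0.05 and at least 1.5-fold, the study's threshold, and "the methods' t-test" is the unequal-variance test that the methods name. Exact permutation tests used scipy 1.17.1. A gene not well above background on any array of 1 group is given as an approximate bound. On each array of that group the gene's own signal, or the lowest among detected probes where that was higher, was used. Arrays of the other group kept their own signals, detected or not, so the bound is not a strict minimum.

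None of the 19376 probe accessions matched the reference gene table, so names came from the study's supplementary list only. Of the 34 function lists, 2 had no named probe, and of the 15 cell type marker lists, 10. The genes named were, by rule, up to 8 probes in each direction with the smallest p among separated called ones that were well above background on all arrays of the higher group, up to 2 called probes in each direction of each list (or its 2 brightest where none was called), PASK, ADK and called cell type markers. A gene that the rule names is not reported here. Other genes in the text were named after their values were seen. The members and lists were chosen with earlier results of these data known. Probe sequences and genome positions were not used here. Alternatives were other background corrections, scalings, filters and tests, a replicate block, and each array left out in turn. Slide could not be fitted as a block.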

Additional observations from a re-analysis of the deposited data

Results flagged for a closer look

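In 224 groups of 4 arrays (the named genes, the list means and the array summaries), 1 array stood apart from the other 3 by Dixon's criterion in 13, and chance gives about 1 in 20. Among array summaries, LBW replicate 3 had 15147 probes well above background, against 15971 to 15977 on the other LBW arrays. ABW replicate 1 stood apart for C2 (-1.75, the others -1.19 to -1.12), CST9L (-5.51, the others -5.88 to -5.83) and HIST1H1E (-1.62, the others -2.10 to -2.03). ABW replicate 2 stood apart for SLC25A4, the muscle ADP/ATP carrier (7.14, the others 5.48 to 5.58), for the mean of the respiratory chain and citric acid cycle lists (2.41, the others 1.58 to 1.68) and for DLX2 (-4.25, the others -4.51 to -4.48). ABW replicate 3 was low for a probe similar to titin (6.70, the others 7.15 to 7.21), and ABW replicate 4 high for CDC2 (-5.02, the others -6.01 to -5.85). In the LBW group, replicate 2 was high for MRPS6 (3.46, the others 2.85 to 2.93) and replicate 3 for DLX2 (-3.14, the others -3.68 to -3.61). LBW replicate 4 was high for LDHA (6.66, the others 4.84 to 5.04) and for the mean of the matrix lists (-0.83, the others -1.35 to -1.30).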

How the results depend on the processing

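The count of 2089 called probes became 539 with normexp and 1365 with the methods' t-test, and otherwise stayed within 1.5 times. Calls higher in LBW became 363 with normexp, 1107 with quantile normalization and 216 with spike-in scaling. Calls lower became 176, 698 and 2409 under those settings and 204 with the methods' t-test. Leaving out 1 array gave 1484 to 2881 calls, 1137 to 2232 higher and 315 to 649 lower (649 without LBW replicate 4). At an adjusted p below 0.05, the count was 2 with the filter on muscle groups, 5 with probes well above background on all 8 arrays, 3 with a floor, 4 with the spread over 22 arrays, 9 with array weights and 0 to 2 with 1 array left out. For the difference between tissues it was 1 with median scaling, with the percentile of detected probes and with a floor, 39 with array weights, and 0 to 2 with 1 array left out. Probes past the unadjusted threshold there numbered 510 with normexp and 67 with spike-in scaling. Matrix probes called lower numbered 4 with normexp, 4 with the methods' t-test, 5 with array weights and 4 to 8 with 1 array left out. Cell cycle probes called lower numbered 0 with normexp, 0 with the filter on all 8 arrays, which kept none of them, and 2 with the methods' t-test. Genes of other tissues called higher numbered 2 with normexp, 4 with quantile normalization, 3 with spike-in scaling, 4 with array weights and 3 to 10 with 1 array left out. With normexp the sign turned for CCNB1 (0.0398), MMP25 (0.0610), BUB1B (0.0772), KIF11 (0.151), BNIP3L (0.0642) and CCL11 (0.0132). The cause was not tested. Of the single-gene values under alternatives, 1400 kept direction and side of the threshold, 204 lost the call, 3 gained it (PASK) and 6 turned. Of 70 named called probes, 44 stayed called whichever array was left out, and APOBEC3G, BUB1B, CDCA5, COL27A1, KIF11, LDHA, MRPS30, OGN, PGK1, PLOD2, RPL10, SLC27A1, TNNC1 and VCAN after fewer than 5 of the 8 omissions. Samples of the 2 groups share only a number, which is also the place on the slide. Deviations of same-numbered arrays correlated at -0.17 to 0.13, and a replicate block gave 1994 calls and 0 at an adjusted p below 0.05. Dim signal limits the cell cycle and chemokine values.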
